A study of Drosophila melanogaster with 4 samples.

Results

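In fly ovaries, 81 genes had less poly(A) mRNA in the NSUN2 knockout than in wild type while their ribosome footprints differed by less than 1.5-fold. They were chosen from 2860 listed genes. A gene entered when the higher of its wild-type and knockout values was at least 5 in both assays, which 2644 genes met. Differences were taken as log2 of (knockout + 1) over (wild type + 1). The mRNA difference had to be at least 1.5-fold lower on this scale, and the footprint difference had to lie within 1.5-fold in either direction. The choice therefore rests on the mRNA and footprint values themselves, which are given below as a description.

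The ovaries came from Drosophila melanogaster of the W1118 strain, either wild-type or NSUN2 KO, and each genotype gave 1 footprint library and 1 mRNA library. The sources used here do not give the knockout allele, the age of the flies or the number of animals per library. Footprints are the mRNA fragments of 28 to 30 nt that single ribosomes shield from micrococcal nuclease. With 1 library per group no difference has a replicate check, so no p-value is given, and intervals cover counting error only.

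NSUN2 is a methyltransferase that places 5-methylcytosine (m5C) on tRNAs and on some mRNAs. The abundance of poly(A) mRNA reflects synthesis, decay and polyadenylation of a message. The footprint abundance of the same gene reflects both how many messages there are and how densely ribosomes occupy each of them. Ovaries store many maternal messages that are kept from translation until late in egg formation or in the embryo, so mRNA and footprints need not move together in this tissue. In whole ovaries, fewer cells that carry a message and less of it per cell cannot be told apart.

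The tables identify genes by FlyBase number, and the RefSeq gene table of release 6 paired 18 of the 2860 listed genes with a symbol and 0 of the 81. The 81 genes are therefore given by identifier, without names or roles. The 15 lists of pathway genes and cell type markers reached 1 named gene in all, so neither the ovary label nor the loss of NSUN2 itself was checked here.

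Depth was recovered as whole reads per gene, which rests on 1 constant per assay chosen from the values. Over the listed genes the recovered reads came to 1323478 in footprints and 4753778 in mRNA for wild type, and to 2521130 and 12152829 for the knockout. Recovered reads are lower limits. Other constants that also give whole ratios would make wild-type reads 2 times (footprints) or 3 times (mRNA) larger. The median log2 difference over the 2644 genes was 0.0067 in mRNA and -0.042 in footprints. For the 81 genes the wild-type library had a median of 131 footprint reads, ranging from 9 to 3349, and a median of 831 mRNA reads, ranging from 92 to 13771. Without molecular identifiers, several reads can come from 1 molecule.

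Lower knockout mRNA was uncommon among the listed genes. It reached 1.5-fold in 127 of 2644 genes, or 4.8%, and higher mRNA of the same size was found in 140, or 5.3%. Of the 127 genes with lower mRNA, 81 had footprints within 1.5-fold, 33 had footprints at least 1.5-fold lower, and 13 had footprints at least 1.5-fold higher. Over all 2644 genes, whatever their mRNA, footprints were at least 1.5-fold lower in 13% and at least 1.5-fold higher in 8.32%. Footprints within 1.5-fold were the usual state, met by 78.7% of all 2644 genes and by 80% of the 2377 genes whose mRNA also lay within 1.5-fold. Among the 127 genes with lower mRNA that share was 63.8%. The share with lower footprints was 26% among those 127 and 12.5% among the 2377, and the share with higher footprints was 10.2% and 7.53%. The 81 genes made up 3.06% of the genes compared. Every gene compared has a listed m5C level, the highest fraction given for it, of at least 0.1. Shares of all genes are therefore shares of these genes, not of ovary genes in general.

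**Figure D1:**
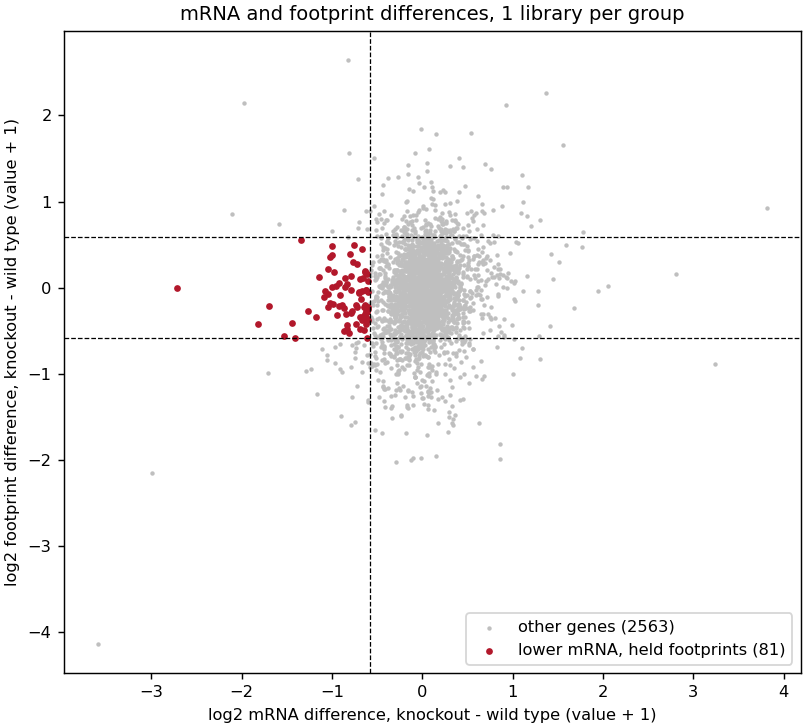
Log2 footprint difference against log2 mRNA difference, knockout minus wild type, for 2644 genes, 1 point per gene. The dashed lines mark 1.5-fold, and the 81 chosen genes (red) fill the band to the left of the vertical line between the horizontal lines.

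Most of the 81 genes lay close to the mRNA threshold. Their log2 mRNA difference had a median of -0.78 and ran from -2.72 to -0.60, and 17 of the 81 were at least 2-fold lower on this scale, against 1.1% of the 2644 genes. The other 64 had a median of -0.70, and the ratio of their deposited values, without the added 1, reached 2.19-fold lower. The footprint differences had a median of -0.18 and quartiles of -0.32 and 0.08. Footprints were below wild type in 54 genes and above it in 27, against 53.9% and 46.1% of the 2644 genes. Between the signed mRNA difference and the footprint difference, Spearman's rho was -0.078 across the 81 genes and 0.157 across the 2644, within the same 4 libraries. The choice limits the range of both differences in the 81 genes, so nothing is read from that contrast.

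**Figure D2:**
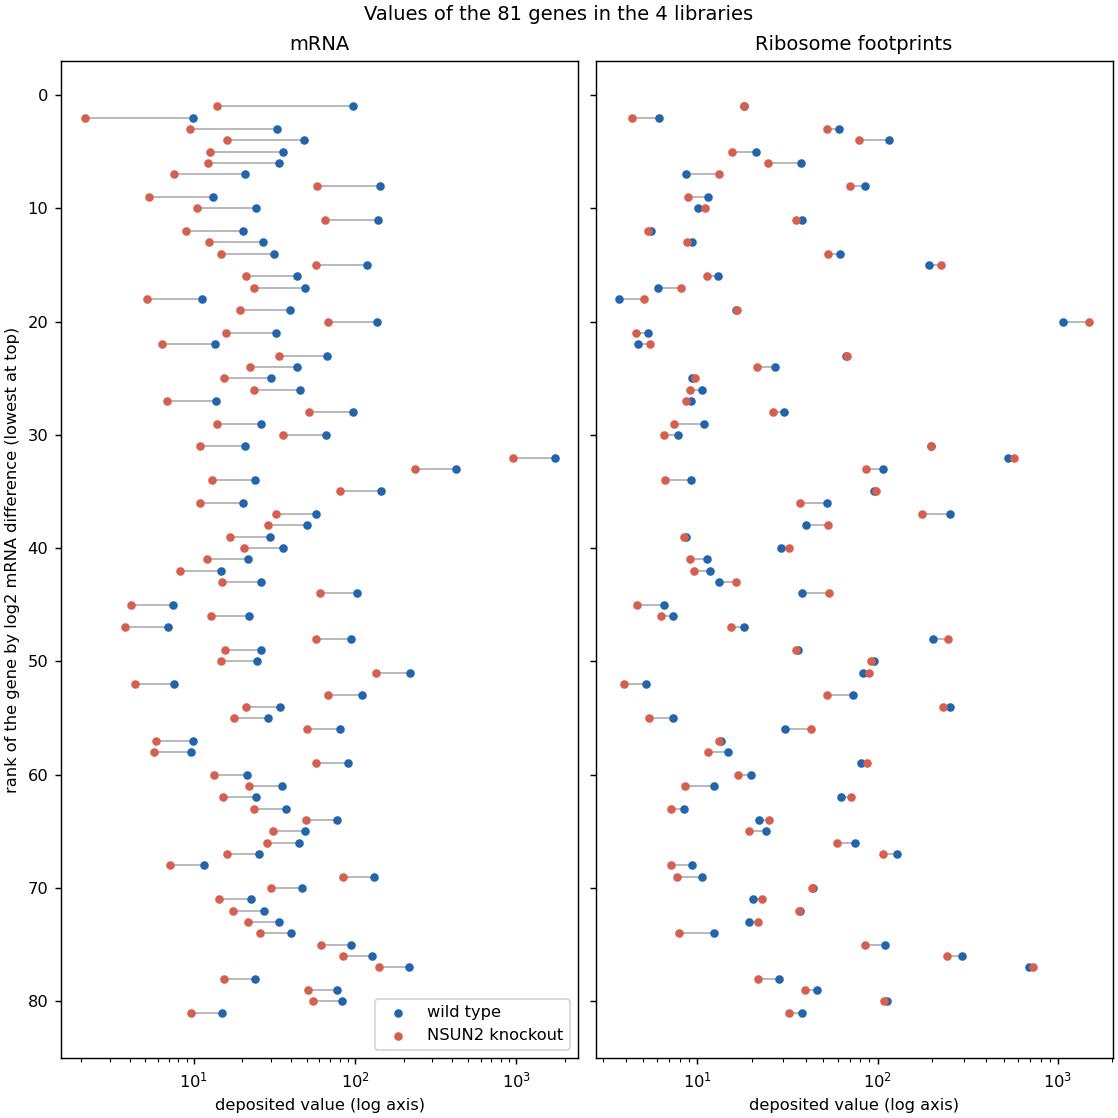
Deposited values (log axis) of the 81 genes in the 4 libraries, ordered by log2 mRNA difference, with wild type in blue and the knockout in red and a grey line joining both. In mRNA every knockout point lies left of its wild-type point, as the choice requires, while the footprint points lie close together on either side.

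One gene stood apart in mRNA. Where a pair of values is given without a genotype, wild type comes first. FBgn0033458 had a wild-type mRNA value of 96.5 and a knockout value of 13.8, lower by 6.98-fold (5.50 to 8.93, the 95% counting interval). Its footprint value was 18.1 in both libraries, with a knockout to wild-type ratio of 1.00 (0.758 to 1.33) from 78 and 157 reads. Dividing footprints by mRNA, the translation efficiency, gave 0.187 for wild type and 1.31 for the knockout. The listed m5C level of this gene, the highest fraction of methylated cytosine given for it, was 0.533.

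The next gene in mRNA, FBgn0038804, was the least abundant message of the 15 with the lowest mRNA differences. Its mRNA value was 9.93 in the wild-type library and 2.10 in the other, lower by 4.74-fold (3.68 to 6.13). The footprint values were 6.14 and 4.32, from 24 and 34 reads, so the ratio of 0.704 had an interval from 0.405 to 1.24. Equality and a difference beyond 1.5-fold both lay inside that interval.

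Both genes that followed had lower footprints, although less so than mRNA. FBgn0035770 had a wild-type mRNA value of 32.9 and a knockout value of 9.42, lower by 3.49-fold (3.16 to 3.86). Its footprint values of 61.1 and 52.5 rested on 383 and 662 reads and gave a ratio of 0.859 (0.756 to 0.976). The whole footprint interval of this gene lay within 1.5-fold. FBgn0010238 had mRNA values of 47.9 and 15.9, lower by 3.01-fold (2.76 to 3.27). Its footprint values were 116 and 78.5, a ratio of 0.677 (0.591 to 0.777), so it lay near the edge of the footprint band.

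FBgn0031738 lay closer still to that edge. It had mRNA values of 33.9 and 12.2, and footprint values of 37.3 and 24.6 with a ratio of 0.660 (0.541 to 0.805). FBgn0039680 had mRNA values of 35.6 and 12.5, with footprint values of 21.1 and 15.6 on 43 and 64 reads. FBgn0028507 went the other way in footprints. Its mRNA values were 20.8 for wild type and 7.55 for the knockout, while its footprint values were 8.6 and 13.1, a ratio of 1.53 (0.971 to 2.48). On 26 and 80 reads, that higher value was not separable from equality. The ratios leave out the added 1, so those of FBgn0031738 and FBgn0028507 lie just past 1.5-fold although both genes met the footprint condition.

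FBgn0038577 and FBgn0263112 were the most abundant messages among these 15 genes. FBgn0038577 had mRNA values of 142 and 58.4 and footprint values of 84.4 and 70.1. For FBgn0263112 the mRNA values were 139 and 65.03, lower by 2.15-fold (2.07 to 2.22). Its footprint values of 38.3 and 35.4 had a ratio of 0.925 (0.800 to 1.07), so its footprints lay inside the band over the whole interval.

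Several less abundant messages showed the same pattern on few footprint reads. FBgn0036330 had mRNA values of 13.1 and 5.23 and footprint values of 11.5 and 8.88, from 27 and 42 reads. FBgn0032848 had mRNA values of 24.2 and 10.4 and footprint values of 10.1 and 11.1. For FBgn0035470 the mRNA values were 26.8 and 12.4 and the footprint values 9.30 and 8.78, from 40 and 76 reads. In all 3 the footprint interval held equality and reached past 1.5-fold on 1 side.

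The last members of the 15 had more footprint reads. FBgn0083962 had mRNA values of 20.01 and 8.92, with footprint values of 5.50 and 5.35. FBgn0052626 had mRNA values of 31.2 and 14.6 and footprint values of 61.7 and 52.8. FBgn0026737 had mRNA values of 119 and 57.3, while its footprint values were 193 and 224, a ratio of 1.16 (1.04 to 1.30). Of the 15 genes, 4 had footprints above wild type, against 46.1% of all genes. A footprint interval that held equality was found in 11 of them, against 46.1% of all genes, and the footprint condition favours such genes.

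**Figure D3:**
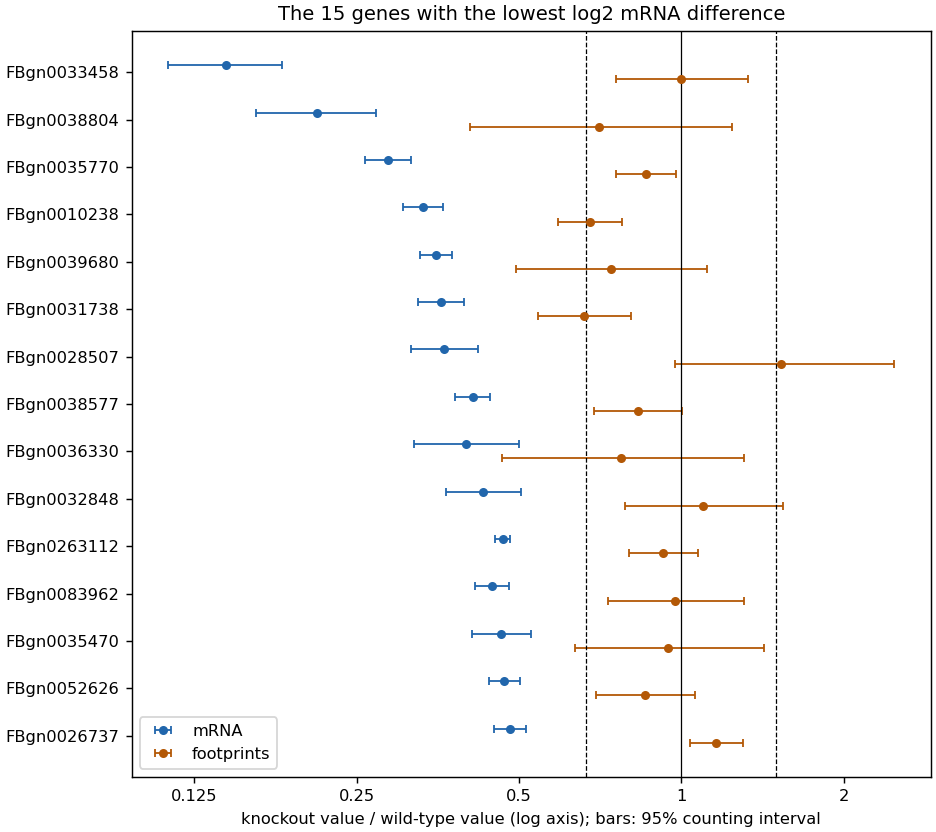
Ratio of the knockout to the wild-type value (log axis) in mRNA (blue) and footprints (brown) for the 15 genes with the lowest log2 mRNA difference; bars are 95% counting intervals, and the dashed lines mark 1.5-fold. All 15 mRNA intervals lie left of the lower dashed line, and 11 of the 15 footprint intervals cross the line at 1.

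Among the 8 genes with the highest wild-type footprint values, FBgn0004587 came first, with a wild-type footprint value of 1064 and a knockout value of 1486, a ratio of 1.40 (1.34 to 1.45) on 3349 and 9417 reads. Its mRNA values were 137 and 68.2, lower by 2.01-fold (1.94 to 2.08). Here more footprints went with less mRNA, and the translation efficiencies were 7.76 and 21.8, the latter the highest knockout value of the 81. FBgn0038922 had the highest wild-type translation efficiency of the 81, 9.54, with 18.1 in the knockout. Its mRNA values were 20.7 and 10.96, and its footprint values were 197 and 198, a ratio of 1.00 (0.913 to 1.10).

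FBgn0261608 was by far the most abundant message of the set, with a wild-type mRNA value of 1724 and a knockout value of 952, lower by 1.81-fold (1.77 to 1.85). Its footprint values of 529 and 571 gave a ratio of 1.08 (0.916 to 1.27). FBgn0014189 had mRNA values of 214 and 141 and footprint values of 688 and 727, a ratio of 1.06 (1.01 to 1.11) on 2587 and 5504 reads. The FBgn0261608 interval held equality, and that of FBgn0014189 lay slightly above it.

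FBgn0002645 had mRNA values of 34.1 and 20.96 and footprint values of 251 and 229, a ratio of 0.915 (0.872 to 0.960). FBgn0038829 had mRNA values of 94.3 and 56.9 and footprint values of 202 and 245, a ratio of 1.21 (1.09 to 1.35). FBgn0035871 had mRNA values of 128 and 83.6 and footprint values of 295 and 243. Small footprint differences in either direction were thus larger than counting error at this depth. FBgn0035528 had mRNA values of 57.3 and 32.1, and footprint values of 253 and 176, a ratio of 0.695 (0.604 to 0.801). It was the only one of these 8 genes whose footprint interval reached past 1.5-fold, and 5 of the 8 had footprints above wild type, against 46.1% of all genes.

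The 5 genes with the footprint difference nearest 0 included FBgn0033458 and FBgn0038922 above. FBgn0031435 had mRNA values of 66.7 and 33.8 with footprint values of 66.9 and 67.9, a ratio of 1.02 (0.864 to 1.2). Its wild-type footprint and mRNA values were nearly equal, and its translation efficiencies were 1.00 and 2.01. FBgn0035336 had mRNA values of 39.5 and 19.3 and footprint values of 16.4 and 16.5. FBgn0038057 had mRNA values of 29.8 and 16.8 and footprint values of 8.64 and 8.48, where 40 and 79 reads left an interval from 0.663 to 1.47.

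Members at the thresholds differed little from genes just beyond them. FBgn0029738, the member nearest the mRNA threshold, had a log2 mRNA difference of -0.599. FBgn0036165 and FBgn0033083 followed at -0.602 and -0.603. Outside it, FBgn0030320 lay at -0.5846, FBgn0051163 at -0.584 and FBgn0000114 at -0.583. In footprints, the members nearest the edge were FBgn0031738 at -0.581, FBgn0039164 at -0.580 and FBgn0028507 at 0.559. Just outside were FBgn0032847 at 0.586, FBgn0044826 at -0.635 and FBgn0031320 at -0.645. FBgn0039164 had nearly the same translation efficiency in both genotypes, 0.310 and 0.309, with footprint values of 12.4 and 7.94 and mRNA values of 39.9 and 25.7.

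The other 47 members, not named here, had log2 mRNA differences from -1.02 to -0.60 with a median of -0.70. Their wild-type mRNA values ranged from 7.46 to 423 and their wild-type footprint values from 3.68 to 128. Footprints were below wild type in 32 of them and above in 15. Over all 81 members, 4 had a knockout mRNA value under 5 and so entered through wild type alone, and 6 had a footprint value under 5 in 1 library. No member was at 0 in any library.

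Counting error bore on the mRNA and the footprints of these genes to a different degree. The mRNA interval lay below wild type in all 81 genes, against 35.1% of the 2644, and lay past 1.5-fold in 54, against 3.48%. The choice used the same values, so nothing is read from that contrast. The footprint interval lay wholly within 1.5-fold in 36 of the 81 genes, or 44.4%, against 45% of all 2644 genes. These shares are not of like genes. All 1190 genes with such an interval lay among the 2081 with footprints within 1.5-fold, where the choice placed all 81. In the other 45 of the 81 genes the depth did not show that footprints stayed within 1.5-fold. Among the 81, the interval reached past 1.5-fold lower in 36 genes and past 1.5-fold higher in 13. The shares of such intervals over all 2644 genes were not counted, so nothing is read from these 2 counts. The footprint interval held equality in 53 genes, against 46.1% of all genes. It lay wholly below wild type in 20 and wholly above in 8, against 29.9% and 24.1%. Both conditions, mRNA past 1.5-fold lower and footprints within 1.5-fold over the whole interval, were met by 26 of the 81 genes. These are stricter forms of the limits that chose the genes, and their share over all 2644 genes was not counted. Nothing is read from that count.

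The mRNA interval lay wholly below the footprint interval in 56 of the 81 genes, against 19.3% of the 2644. The choice of lower mRNA with held footprints favours such a gap, so nothing is read from that contrast. The median translation efficiency of the 81 genes was 0.658 for wild type and 1.2 for the knockout, while over the 2644 genes the medians were 0.944 and 0.933. In wild type 54 of the 81 genes had fewer footprints than mRNA by these values, a translation efficiency under 1, and in the knockout 34 did, against 51.8% and 52.8% of all genes. For 23 of the 81 the knockout value was at least 2-fold higher, against 3.56% of the 2644 genes. The higher knockout value follows from the choice of lower mRNA with held footprints. Wild-type translation efficiency also shares its values with the choice, so its low level in the 81 genes is not read as a trait of them. The 98 genes with higher knockout mRNA and footprints within 1.5-fold had medians of 2.08 for wild type and 1.04 for the knockout. On the percentile scale of the 2644 genes, the median member moved from 36.8 in wild type to 59.6 in the knockout in translation efficiency, and from 47.8 to 19.2 in mRNA level. In footprint level its percentiles were 39.0 and 37.8. Across the 81 genes, mRNA and footprint values had a Spearman rho of 0.582 for wild type and 0.596 for the knockout, against 0.452 and 0.517 over all genes.

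**Figure D4:**
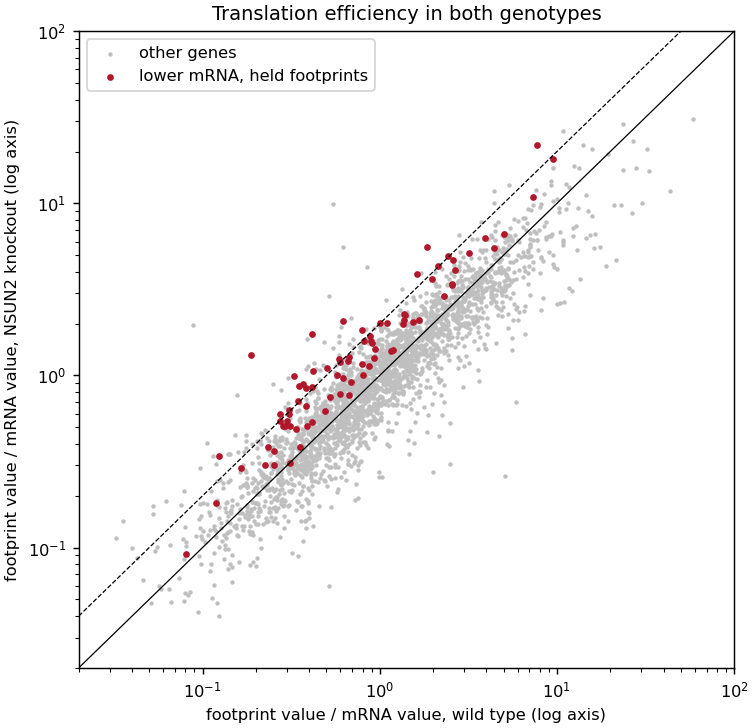
Translation efficiency (footprint value over mRNA value) in the knockout against wild type for 2644 genes on log axes, with the 81 chosen genes in red. The solid line marks equality and the dashed line a 2-fold higher value in the knockout, which 23 of the 81 genes reached.

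The m5C level did not enter the choice. It had a median of 0.246 over the 81 genes, with quartiles of 0.144 and 0.465, and a median of 0.269 over the 2644 genes, with quartiles of 0.156 and 0.474. Levels of at least 0.6 were listed for 11 of the 81 genes, or 13.6%, against 17.5% of all genes, and of at least 0.7 for 7, against 12%. Levels under 0.2 were listed for 32, or 39.5%, against 36.2%. The lowest level was 0.1 in the 81 genes and in the 2644, so less methylated messages are in neither share. A single level is listed per gene, the same in all 4 tables and with no coverage, so it does not separate wild type from the knockout. The 98 genes with higher knockout mRNA and footprints within 1.5-fold had a median of 0.249, close to that of the 81. With 1 library per group, none of these medians was tested against another.

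The most highly methylated messages of the set were of several kinds in abundance. FBgn0035802, at an m5C level of 0.907, had mRNA values of 11.5 and 7.12 and footprint values of 9.30 and 7.12. FBgn0004369, at 0.895, had mRNA values of 6.86 and 3.76 and footprint values of 18.2 and 15.4. Next came FBgn0038829 and FBgn0083962, described above, at 0.894 and 0.884. FBgn0038473, at 0.794, had mRNA values of 103 and 60.4, while its footprint values were 37.8 and 53.8, a ratio of 1.42 (1.21 to 1.68). FBgn0032974, at 0.761, had mRNA values of 48.5 and 30.9 and footprint values of 23.9 and 19.2. Footprints were above wild type in 2 of these 6 genes, against 46.1% of all genes, and nothing about methylation is read from so few.

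Across the 81 genes the m5C level had a Spearman rho of -0.068 with the mRNA difference and -0.080 with the footprint difference, and over all 2644 genes the values were -0.019 and -0.073. These values share the 4 libraries. The 26 genes that met both interval conditions had a median m5C level of 0.436, and the other 55 had 0.209. That split was chosen after seeing the data. Those 26 genes also had more footprint reads in wild type, with a median of 226 against 72 in the other 55. Between m5C level and wild-type footprint reads, rho was 0.302 across the 81 genes and 0.032 across the 2644. By the footprint interval alone, the 36 members within 1.5-fold had a median m5C level of 0.386, and the other 45 had 0.212. Among all genes, the 1190 whose footprint interval lay within 1.5-fold had a median m5C level of 0.277, and the other 1454 had 0.262. The part of read depth in the difference among the 81 was not tested.

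Lengths were recovered together with the reads, as the smallest whole length that fits both libraries, so some are too short. The mRNA length was under 3 times the coding length in 13 of the 81 genes, FBgn0033458 among them, and at least that in 85.8% of all listed genes. The mRNA length had a median of 2040 nt over the 81 genes and 2403 nt over the 2644. The coding length, on the assumption that its unit is the codon, had a median of 477 codons against 584. Members with footprints above wild type had shorter recovered mRNA lengths, with a median of 1567 nt in 27 genes against 2467 nt in the 54 genes below. That split uses footprint values that took part in the choice, and it was not made over the 2644 genes. The 17 members at least 2-fold lower in mRNA after adding 1 had a median coding length of 359 codons, and the other 64 had 508.5. The 33 genes with both mRNA and footprints lower had a median mRNA length of 2091 nt and 450 codons, near those of the 81. No test was possible for these lengths.

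**Figure D5:**
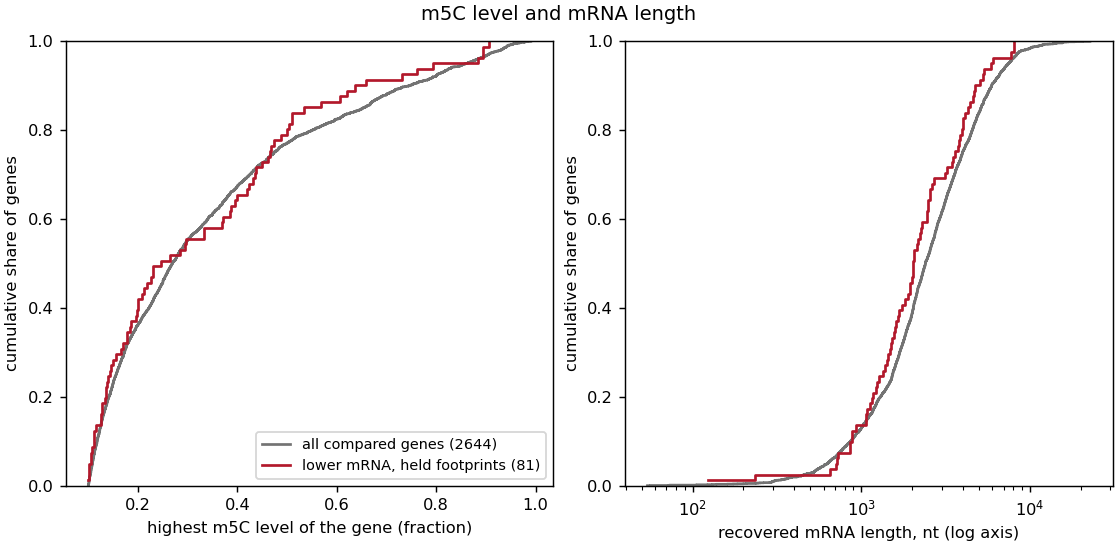
Cumulative share of genes by highest listed m5C level (left) and by recovered mRNA length (right, log axis), for the 81 genes (red) and all 2644 genes compared (grey). The m5C curves run close together, with medians of 0.246 and 0.269, and the length curve of the 81 genes lies to the left over most of its range, with medians of 2040 and 2403 nt.

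The genes with lower mRNA outside the footprint band had other median wild-type levels, with overlapping quartile ranges. In wild-type mRNA the quartiles were 18.1 and 46.4 in the 33 genes lower in both assays, and 22.7 and 77.5 in the 81. The 33 genes lower in both assays had a median wild-type mRNA value of 25.5 and footprint value of 28.8, against 34.1 and 23.9 in the 81. Their median translation efficiencies were 0.983 and 0.911. The 13 genes with lower mRNA and higher footprints had a median wild-type mRNA value of 72.4 and footprint value of 39.3. Median translation efficiencies of these 13 were 0.516 and 1.69. By medians, the 81 genes lay between these groups in wild-type mRNA level and in knockout translation efficiency, and below both in wild-type footprints. All of these values took part in the choice.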

How the data were processed

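Per the labels' protocols, footprints came from micrococcal nuclease digestion, isolation of single ribosomes and rRNA depletion, and mRNA from poly(A) selection with a directional kit. Trimming and alignment tools and the build (cutadapt, TopHat2, HTSeq, dm3) are listed per the submitters' processing notes, and the sources used here give neither versions nor annotation. In the deposited tables each gene has 1 signal value per library, which by its recovered form is scaled to depth and a gene length, with the scaling unnamed. The deposited m5C level is a fraction with no coverage.

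The members and lists were chosen with earlier results of these data known. Whole reads were recovered as value times length over a library constant. The constant between libraries was the one at which the whole-number ratios had numerators and denominators divisible by 2, 3, 5 and 7 equally often. All 2860 genes gave whole reads in both assays (relative tolerance 1.5e-09), against 6 in footprints and 29 in mRNA with a moved constant. At equal values the knockout had 2.01 reads per wild-type footprint read and 2.58 per wild-type mRNA read. Constants that make wild-type reads 2 times (footprints) or 3 times (mRNA) larger also give whole ratios. With them, among ratios of small whole numbers, 61.0% and 50.9% of wild-type numbers were divisible by that factor, against 19.4% and 15.0% of knockout numbers. With the constants used the shares were 34.5% and 26.2% against 31.8% and 23.5%. Under those larger constants the wild-type depths would be larger by these factors and the intervals narrower. A factor shared by reads and length is lost, so reads and lengths are lower limits and intervals can be too wide. The recovery was tested on simulated data. Counting intervals (95%, Clopper-Pearson) come from the knockout share of a gene's reads, without the pseudocount of 1. Named genes were the 15 with the lowest mRNA difference, the 8 with the most wild-type footprints, the 6 with the highest m5C level, the 5 with footprint differences nearest 0 and the 3 on each side of each threshold. Python 3.11.15, scipy 1.17.1 and pandas 2.3.3 were used.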

Additional observations from a re-analysis of the deposited data

How the results depend on the processing

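No paired analysis was possible because every genotype and assay had 1 library. Other pseudocounts, minimums and scalings gave 60 to 94 genes. With a pseudocount of 0.1 there were 82 genes, 78 of them shared with the 81, and with upper-quartile scaling 66, of which 65 were shared. A mean of at least 50 recovered reads left 68 genes, with a median log2 footprint difference of -0.095 against -0.18. Requiring mRNA at least 2-fold lower left 17 genes, 5 of them with footprints above wild type, and a median log2 mRNA difference of -1.18. Requiring footprints within 1.2-fold left 43 genes and a median log2 footprint difference of -0.033. Both follow from the narrower limits. Requiring counting intervals past both limits, chosen after seeing the data, left 26 genes, 12 of them with footprints above wild type. Their medians were -0.88 in log2 mRNA difference, -0.034 in log2 footprint difference, 0.436 in m5C level and 0.951 in wild-type translation efficiency, and the cause was not tested. The median log2 footprint difference stayed negative under the alternatives run, and the other medians could not change sign. Protein length in RefSeq was not run because no member matched. Depth limits the footprint side, where 21 of the 81 genes had fewer than 50 recovered wild-type reads. Recovered reads are lower limits, so some of these genes can have more. The share over the 2644 genes was not counted. The lower quartile of recovered wild-type footprint reads was 45 in the 81 genes and 74 in the 2644.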
